A study of Rattus norvegicus with 6 samples.

Results

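The genes of DNA replication and nucleotide supply were examined after NQO1 knockdown in cells labelled PC12. They are 52 genes of the G1/S transition and S phase, taken by their symbols from the deposited tables of read counts and FPKM (sequenced fragments scaled by transcript length and library depth). Their symbols stand in 53 of the 18746 rows of the count table, because an unprocessed pseudogene is also listed as Dbf4. The protein-coding row was used for Dbf4, so that each gene has 1 row. Every one of the 52 genes passed the filter on low counts and was tested.

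PC12 is a cell line from a rat pheochromocytoma, a tumor of adrenal chromaffin cells. The cells received a small interfering RNA against NQO1 (siNQO1, 3 samples) or a nontargeting one (siCtrl, 3 samples) with Lipofectamine 2000, and polyadenylated RNA was sequenced. The labels differ from the paper on the agents, giving an shRNA and a plasmid control, but the groups are the same. The comparison asks which transcripts differ when NQO1, a quinone reductase, is depleted in a transfected culture.

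Before a cell copies its DNA, the origin recognition complex, Cdc6 and Cdt1 load rings of MCM2-7 onto origins, a step called licensing. Kinases then recruit Cdc45 and the GINS complex, which turn each ring into an active helicase, and polymerases with the sliding clamp PCNA copy the opened strands. Ribonucleotide reductase and thymidylate enzymes supply the deoxynucleotides, and E2F factors drive the transcription of many of these genes as cells leave G1, while cyclin E with Cdk2 promotes entry into S phase.

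Each library held 28873824 to 39467230 counted reads, and the 52 genes had between 86 reads (E2f7 in siNQO1 replicate 2) and 10295 reads (Tk1 in siCtrl replicate 3) in a library. Nqo1 itself was at 369, 321 and 345 FPKM in siCtrl replicates 1, 2 and 3 and at 80.8, 75.2 and 77.7 in siNQO1 replicates 1, 2 and 3, so the target was lower in every library labelled siNQO1. The siCtrl replicate 2 lay close to the siNQO1 libraries in log2 CPM (counts scaled to library size, on a log2 scale). It correlated at 0.986 and 0.989 with the other siCtrl libraries and at 0.989 to 0.990 with the siNQO1 libraries. The siCtrl replicates 1 and 3 correlated at 0.993 with each other and at 0.984 to 0.989 with the siNQO1 libraries. Which of the siCtrl libraries was unusual was not tested. Chromaffin markers were almost absent. All 10 of the 12 markers that were measured stayed under 1 FPKM in every library, and tyrosine hydroxylase, Th, reached at most 0.09 FPKM. Markers of Schwann cells and glia were abundant, with Sox10 at 192 to 233 FPKM. The summed FPKM of the 7 Schwann and glial markers ran from 473 to 541 in siCtrl and from 420 to 426 in siNQO1, while S100b and Erbb3 fell (log2 fold changes -0.45 and -0.43, edgeR adjusted p 0.00329 and 0.00583) and Mbp stayed at or under 0.04 FPKM. These levels go against the label of a chromaffin line and put the identity of the cells in doubt, so PC12 is used here as the label only. Whether the shift in glial markers had a part in the results that follow was not tested.

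Replication genes were lower after NQO1 knockdown, by modest amounts. Of the 52 genes, 21 fell at an adjusted p under 0.05 in the quasi-likelihood test of edgeR, none rose, and 31 did not pass. Among all 12420 genes tested, 7.38% fell and 5.27% rose. At an unadjusted p under 0.05, 34 of the 52 genes were lower and 0 higher in edgeR, beside 15.3% and 13.7% of all genes. The count of genes that rose was also 0 in DESeq2 and limma voom, beside 7.17% and 5.74% of all genes, with 0 and 1 at an unadjusted p under 0.05. The median log2 fold change of the 52 genes was -0.24, and that of all genes tested was 0.01. A negative value was found for 46 of the 52 genes, beside 48.3% of all genes. Every siNQO1 library lay below every siCtrl library for 36 of the 52 genes, beside 17.9% of all genes, and the reverse held for 0 of them, beside 16.3%. None of the 52 passed a fold of 2, which 0.435% of all genes passed, and the lowest log2 fold change was -0.57. In RNA of a whole culture, fewer cells in S phase and less of these transcripts per cell cannot be told apart.

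**Figure D1:**
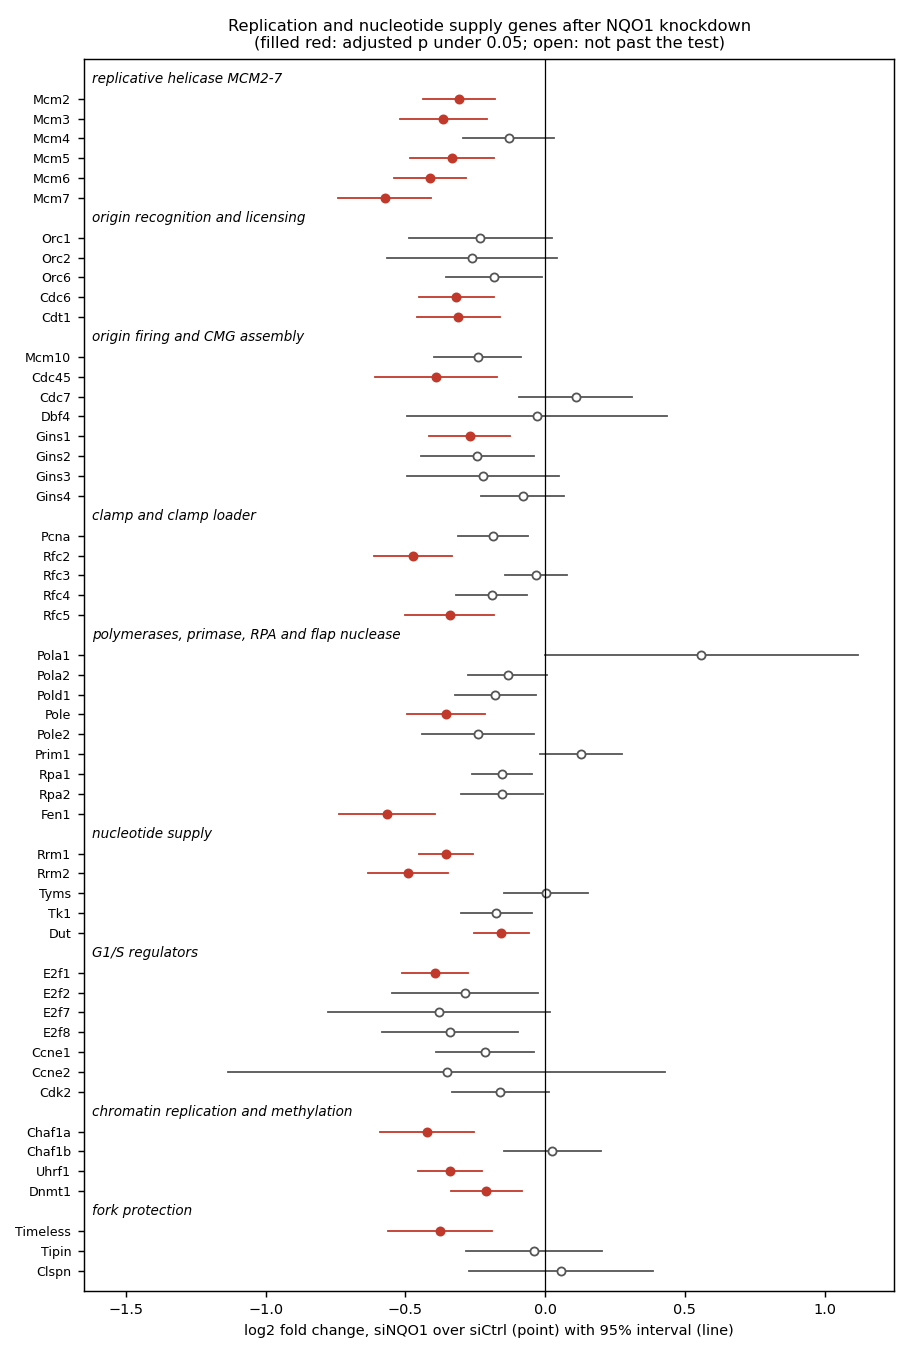
Log2 fold change (siNQO1 over siCtrl, horizontal axis) of each of the 52 genes, grouped by role, with the point for the edgeR estimate and the line for its 95% interval. The 21 filled red points passed an adjusted p of 0.05, all of them below 0, while Pola1 stands alone on the right at 0.56 with an interval that reaches 0.

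The calls depended on single libraries for some genes. Of the 21 genes, 10 passed in edgeR whichever library was left out, and these were Mcm6, Mcm7, Rfc2, Pole, Fen1, Rrm1, Rrm2, E2f1, Chaf1a and Uhrf1. Without siCtrl replicate 2, all 21 passed, 33 genes in all were lower and 2, Pola1 and Prim1, were higher, beside 16.1% and 17.2% of all genes. With siCtrl replicate 3 or siNQO1 replicate 2 left out, 12 genes were lower, beside 3.55% and 2.78% of all genes. With siCtrl replicate 1, siNQO1 replicate 1 or siNQO1 replicate 3 left out the counts were 18, 14 and 15, beside 5.23%, 3.91% and 3.35%. Other scalings of edgeR gave 22 (RLE), 19 (upper quartile) and 25 (library size alone), beside 7.79%, 6.61% and 8.39% of all genes. The count was 20 with no filter and 26 with a CPM over 1 in at least 3 libraries, beside 4.82% and 10.5%. It was 21 in DESeq2 and in limma voom and 22 in both limma fits of log2 FPKM, beside 9.66%, 7.47%, 7.42% and 7.41%. With the replicate number as a block it was 19, beside 5.96%. Voom with sample weights, added after the data were seen, gave siCtrl replicate 2 a weight of 0.234 and called 33 lower and 2 higher, beside 15.5% and 16.1%.

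The MCM2-7 ring, the motor of the replicative helicase, fell in 5 of its 6 subunits, beside 7.38% of all genes tested. Mcm7 (chromosome 12, ENSRNOG00000001349) was at 79.8, 65.5 and 72.0 FPKM in siCtrl replicates 1, 2 and 3 and at 48.3, 46.4 and 49.97 in siNQO1 replicates 1, 2 and 3. The siNQO1 values stayed within a narrow band below all siCtrl values. The siCtrl mean was 72.5 ± 7.17 FPKM (SD, n = 3) and the siNQO1 mean 48.2 ± 1.81 (SD, n = 3), a difference of -0.57 ± 0.073 (SE) on the log2 scale in edgeR (adjusted p 0.00259). Mcm6 went from 73.8, 65.3 and 69.7 FPKM to 52.4, 50.6 and 52.5, again without overlap (edgeR log2 fold change -0.41 ± 0.057 SE, adjusted p 0.00348). Mcm5 went from 62.8, 52.8 and 57.5 FPKM to 44.4, 46.4 and 45.4, Mcm3 from 51.9, 43.5 and 46.1 to 36.7, 35 and 37.1, and Mcm2 from 53.8, 48.2 and 52.9 to 41.7, 41.3 and 40.9. Their log2 fold changes were -0.33, -0.36 and -0.31 (edgeR adjusted p 0.0149, 0.0119 and 0.0112). In each of these 3 genes siCtrl replicate 2 was the lowest siCtrl library and still lay above all siNQO1 libraries.

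Mcm4 was the subunit that did not pass. It was at 31.1, 35.7 and 29.2 FPKM in siCtrl and at 27.6, 29.4 and 29.8 in siNQO1, so the groups overlapped (log2 fold change -0.13, 95% interval -0.29 to 0.03, edgeR adjusted p 0.263). It was also the least abundant of the 6 in siCtrl and in siNQO1. The summed FPKM of the 6 subunits was 353, 311 and 327 in siCtrl and 251, 249 and 256 in siNQO1. Mcm7 made up 22.6%, 21.1% and 22.0% of that sum in siCtrl and 19.2%, 18.6% and 19.6% in siNQO1. Mcm4 made up 8.80%, 11.5% and 8.92% in siCtrl and 11.0%, 11.8% and 11.7% in siNQO1, with siCtrl replicate 2 among the siNQO1 libraries. Mcm2 and Mcm5 did not pass without siCtrl replicate 3 (edgeR adjusted p 0.0502 and 0.0596), and Mcm3 did not pass without siNQO1 replicate 2 (edgeR adjusted p 0.0532).

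**Figure D2:**
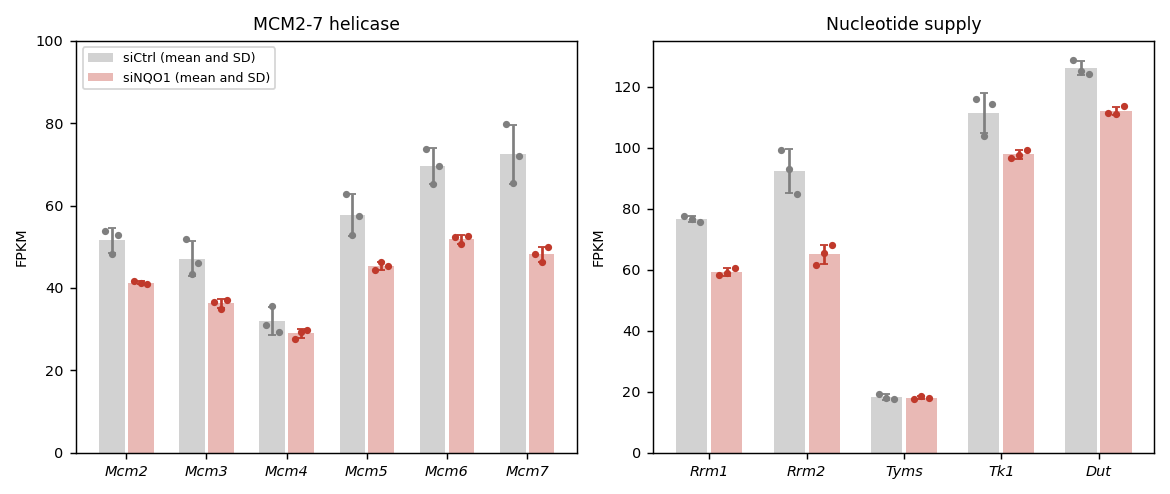
FPKM (vertical axis) of the 6 MCM2-7 genes and of the 5 nucleotide supply genes in siCtrl (gray) and siNQO1 (red). Bars are means, error bars are SD and points are the 3 libraries of each group. The siNQO1 points lie below the siCtrl points in every gene except Mcm4 and Tyms.

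E2F factors activate the MCM genes in late G1, and the promoters of these genes carried E2F letters. The motif was searched as TTTGGCGC, TTTCCCGC, TTTGCCGC or TTTCGCGC on either strand of RefSeq promoter windows, which hold 250 bases before and 50 after the start of a gene in the build GRCr8. A match near a start is shown for the 5 MCM genes that have a window, with the matching letters in capitals and overlapping matches run together. Gins1, which also fell, and Tyms, which kept its level, are shown beside them.
Mcm2, chr4:122918095-122918154, minus strand: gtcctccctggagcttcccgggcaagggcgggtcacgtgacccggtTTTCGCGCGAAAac
Mcm3, chr9:30733745-30733804, minus strand: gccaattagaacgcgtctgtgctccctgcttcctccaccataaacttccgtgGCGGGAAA
Mcm5, chr19:13488753-13488812, plus strand: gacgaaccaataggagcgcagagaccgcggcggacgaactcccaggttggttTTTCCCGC
Mcm6, chr13:42404454-42404513, minus strand: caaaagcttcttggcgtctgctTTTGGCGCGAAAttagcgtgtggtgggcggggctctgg
Mcm7, chr12:22163197-22163256, minus strand: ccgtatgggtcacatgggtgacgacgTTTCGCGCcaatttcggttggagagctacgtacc
Gins1, chr3:160184860-160184919, plus strand: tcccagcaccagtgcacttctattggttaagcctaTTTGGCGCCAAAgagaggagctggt
Tyms, chr9:120776087-120776146, minus strand: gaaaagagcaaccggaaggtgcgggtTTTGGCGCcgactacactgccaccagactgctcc
The capitals shown begin 14 bases before the start in Mcm2, 6 in Mcm3, 8 in Mcm5, 139 in Mcm6, 52 in Mcm7, 25 in Gins1 and 37 in Tyms. In Mcm2 and Gins1 matches on both strands overlap into a palindrome, and in Mcm6 matches of different letters overlap.

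RefSeq windows were found for 43 of the 52 genes, and not for Ccne2, Cdc6, E2f1, E2f2, E2f8, Gins4, Mcm4, Orc1 and Rrm2. An E2F match was present in 19 of the 43, which is 44.2%, beside 2.37% of all 27457 genes with a window and 4.36% of the 8729 of them that were tested. Matches were found for 11 of the 18 genes that fell and for 8 of the 25 that did not pass. All 5 MCM genes with a window and all 3 fork protection genes held a match, while none of the 3 G1/S regulators did. Of the other replication genes described below, 26 had a window and 10 held an E2F match, which is 38.5%. Of 30 mitosis genes tested, given for comparison, 25 had a window and 1 held an E2F match. The CHR, searched as TTTGAA, is an element of genes expressed late in the cell cycle. It was found in 72.0% of the 25 mitosis genes and in 14.0% of the 43 replication genes, beside 12.3% of the 8729 genes. CCAAT, the letters of the factor NF-Y, stood in 58.1% of the 43 genes, 76.0% of the 25 and 39.5% of the 8729. The Sp1 letters GGGCGG stood in 67.4%, 72.0% and 64.7% of the same sets. A match is a run of letters and not a measured binding site.

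**Figure D3:**
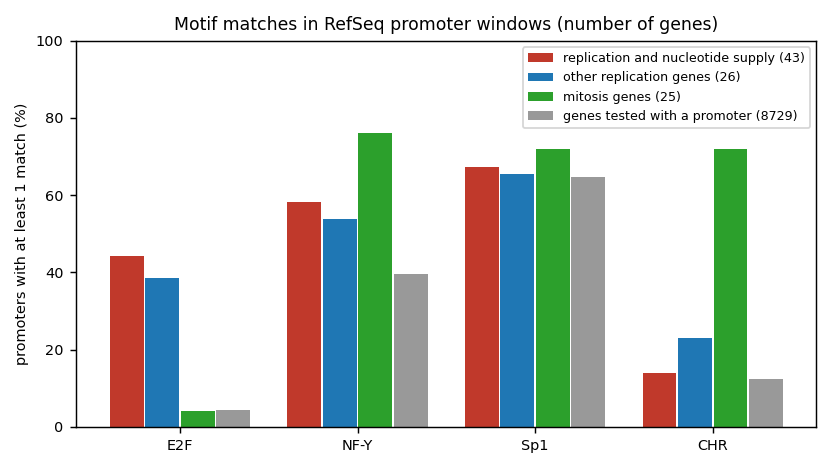
Share of genes with a RefSeq promoter window that hold at least 1 match (vertical axis, percent) for the E2F, NF-Y, Sp1 and CHR letters. The sets are 43 replication and nucleotide supply genes (red), 26 other replication genes (blue), 25 mitosis genes (green) and the 8729 tested genes with a window (gray). E2F matches stand in 44.2% of the red set, 38.5% of the blue and 4.0% of the green, and the order is the reverse for the CHR.

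Of the licensing factors, Cdc6 and Cdt1, which bring the MCM ring to origins, fell. Cdc6 was at 10.5, 10.5 and 10.3 FPKM in siCtrl and at 8.04, 8.37 and 8.44 in siNQO1 (edgeR log2 fold change -0.32 ± 0.059 SE, adjusted p 0.0118). Cdt1 was at 27.6, 24.1 and 26.3 FPKM in siCtrl and at 20.3, 21.1 and 20.9 in siNQO1 (edgeR log2 fold change -0.31 ± 0.065 SE, adjusted p 0.0184). In both genes every siNQO1 library lay below every siCtrl library. The origin recognition subunits Orc1, Orc2 and Orc6 had log2 fold changes of -0.23, -0.26 and -0.18 and did not pass (edgeR adjusted p 0.213, 0.234 and 0.151). Orc1 and Orc6 were without overlap, and Orc2 overlapped because siNQO1 replicate 2, at 5.20 FPKM, lay above siCtrl replicate 1, at 4.92. Cdc6 did not pass without siNQO1 replicate 2 (edgeR adjusted p 0.0544), and Cdt1 did not pass without siCtrl replicate 3 or any 1 of the siNQO1 libraries (highest edgeR adjusted p 0.0705).

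Of the 8 genes of origin firing, Cdc45 and Gins1, which are parts of the active helicase, fell and 6 did not pass. Beside them, 7.38% of all genes tested fell. Gins1 was at 31.7, 30.3 and 31.3 FPKM in siCtrl and at 24.1, 25.9 and 26.7 in siNQO1 (edgeR log2 fold change -0.27 ± 0.064 SE, adjusted p 0.0296). Cdc45 had a siCtrl mean of 4.30 ± 0.480 FPKM (SD, n = 3) and a siNQO1 mean of 3.25 ± 0.156 (SD, n = 3) (edgeR log2 fold change -0.39, adjusted p 0.0325). Both calls were lost without any 1 library other than siCtrl replicate 2, with highest adjusted p of 0.0978 for Gins1 and 0.117 for Cdc45 from edgeR. The other GINS subunits Gins2, Gins3 and Gins4 had log2 fold changes of -0.24, -0.22 and -0.08, and Mcm10, which helps to activate the helicase, had -0.24 at an adjusted p of 0.0516 from edgeR. The kinase Cdc7 and its activator Dbf4 had log2 fold changes of 0.11 and -0.03, with 95% intervals of -0.09 to 0.31 and -0.49 to 0.44. For Dbf4 the siCtrl replicate 2, at 7.76 FPKM, was above all other libraries, and without it the log2 fold change was 0.23 (edgeR adjusted p 0.208).

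The clamp loader opens the PCNA ring and places it on DNA. Its subunit Rfc2 was at 53.2, 46.7 and 50.4 FPKM in siCtrl and at 36.0, 35.2 and 36.1 in siNQO1 (edgeR log2 fold change -0.47 ± 0.061 SE, adjusted p 0.00272). Rfc5 fell as well (-0.34, edgeR adjusted p 0.0175), and lost its call without siCtrl replicate 3 or siNQO1 replicates 1 or 2 (highest edgeR adjusted p 0.0706). Rfc4 was at -0.19 (edgeR adjusted p 0.0586). Rfc3, the most abundant of these subunits, had a siCtrl mean of 83.1 ± 2.00 FPKM (SD, n = 3) and a siNQO1 mean of 80.5 ± 2.23 (SD, n = 3), with a 95% interval of the log2 fold change from -0.14 to 0.08. The log2 ratio of Rfc2 to Rfc3 in FPKM was -0.64, -0.80 and -0.76 in siCtrl and -1.14, -1.17 and -1.20 in siNQO1. This pair and the pairs below were chosen after their values were seen and have no test.

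Pcna was the most abundant of the 52 genes. It was at 191, 215 and 199 FPKM in siCtrl and at 179, 173 and 176 in siNQO1. The groups did not overlap, and the log2 fold change of -0.19 missed the threshold (SE 0.055, edgeR adjusted p 0.0597). It passed without siCtrl replicate 2 or without siCtrl replicate 1 (edgeR adjusted p 0.0210 and 0.0362), and also with DESeq2 (adjusted p = 0.0366).

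Among the enzymes that copy DNA, the flap endonuclease Fen1, which trims Okazaki fragments, and Pole, the catalytic subunit of polymerase epsilon, fell. Fen1 was at 26.5, 22.5 and 24.0 FPKM in siCtrl and at 15.8, 15.6 and 17.4 in siNQO1 (edgeR log2 fold change -0.57 ± 0.075 SE, adjusted p 0.00297). Pole was at 7.62, 6.91 and 6.93 FPKM in siCtrl and at 5.65, 5.34 and 5.62 in siNQO1 (edgeR log2 fold change -0.35 ± 0.062 SE, adjusted p 0.00866). Rpa1, the large subunit of the protein that coats single-stranded DNA, was at 61.4, 58.5 and 60.2 FPKM in siCtrl and at 52.1, 52.7 and 55.7 in siNQO1 (edgeR log2 fold change -0.15, adjusted p 0.0689). Rpa2, Pold1, Pole2 and Pola2 had log2 fold changes from -0.24 to -0.13 and did not pass, although none of them overlapped between the groups.

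Pola1 and Prim1, catalytic subunits of the polymerase alpha and primase complex that starts each new strand, stood apart from the others. Pola1 (chromosome X, ENSRNOG00000013322) was at 2.07, 4.52 and 2.51 FPKM in siCtrl and at 4.21, 4.89 and 4.22 in siNQO1. The siCtrl replicate 2 lay among the siNQO1 libraries, and the log2 fold change of 0.56 did not pass (SE 0.25, edgeR adjusted p 0.173). Without siCtrl replicate 2 it was 0.95 (edgeR adjusted p 4.1e-05). Prim1 had log2 fold changes of 0.13 with all libraries (edgeR adjusted p 0.227) and 0.19 without siCtrl replicate 2 (edgeR adjusted p 0.0109).

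In nucleotide supply, both subunits of ribonucleotide reductase, which makes deoxynucleotides from ribonucleotides, fell. Rrm2, the subunit that holds the radical cofactor, was at 99.2, 92.9 and 84.9 FPKM in siCtrl and at 61.7, 65.6 and 68.0 in siNQO1 (edgeR log2 fold change -0.49 ± 0.063 SE, adjusted p 0.00259). Rrm1, the catalytic subunit, was at 77.5, 76.5 and 75.7 FPKM in siCtrl and at 58.2, 59.0 and 60.7 in siNQO1 (edgeR log2 fold change -0.35 ± 0.043 SE, adjusted p 0.00200). Rrm1 had the smallest adjusted p of the 52 genes. The log2 ratio of Rrm2 to Rrm1 was 0.36, 0.28 and 0.16 in siCtrl and 0.08, 0.15 and 0.16 in siNQO1, so the ratios of the replicates numbered 3 were nearly equal.

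Of the thymidylate enzymes Tyms, Tk1 and Dut, only Dut passed, and differences between them were not tested. Tyms, the thymidylate synthase, was at 19.2, 17.8 and 17.7 FPKM in siCtrl and at 17.8, 18.7 and 17.9 in siNQO1, with a log2 fold change of 0.00 and a 95% interval of -0.15 to 0.15. Its sign turned with the scaling (-0.001 with RLE size factors). Tk1, the thymidine kinase of the salvage route, had a siCtrl mean of 111 ± 6.54 FPKM (SD, n = 3) and a siNQO1 mean of 97.9 ± 1.40 (SD, n = 3) (edgeR log2 fold change -0.17, adjusted p 0.0769). Dut, which removes dUTP, was at 129, 125 and 124 FPKM in siCtrl and at 111, 111 and 114 in siNQO1 (edgeR log2 fold change -0.16 ± 0.043 SE, adjusted p 0.0483). Its groups lay far apart relative to their spread, yet the call was lost without any 1 library other than siCtrl replicate 2 (highest edgeR adjusted p 0.127) and with DESeq2 (adjusted p = 0.0710). The log2 ratio of Rrm2 to Tyms was 2.37, 2.38 and 2.26 in siCtrl and 1.79, 1.81 and 1.93 in siNQO1.

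E2f1, an activator of the G1/S program, was the regulator that fell. It was at 17.3, 16.5 and 16.8 FPKM in siCtrl and at 12.5, 12.3 and 13.3 in siNQO1 (edgeR log2 fold change -0.39 ± 0.052 SE, adjusted p 0.00296). The activator E2f2 was at -0.29 (edgeR adjusted p 0.141). The repressors E2f7 and E2f8, which switch the program off, were at -0.38 and -0.34 (edgeR adjusted p 0.194 and 0.0720) and had under 6 FPKM in every library. The log2 ratio of E2f1 to E2f8 overlapped between the groups, with means of 1.86 in siCtrl and 1.81 in siNQO1.

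Cyclin E and its kinase did not pass. Cdk2 was at 23.7, 21.2 and 20.2 FPKM in siCtrl and at 18.8, 18.05 and 20.8 in siNQO1, where siNQO1 replicate 3 exceeded siCtrl replicate 3 (edgeR log2 fold change -0.16, adjusted p 0.204). Ccne1 was at -0.21 (edgeR adjusted p 0.106). Ccne2 was at 1.56, 4.40 and 1.81 FPKM in siCtrl and at 2.16, 2.06 and 1.83 in siNQO1. Its log2 fold change of -0.35 (95% interval -1.14 to 0.43) turned to 0.26 without siCtrl replicate 2 (edgeR adjusted p 0.180).

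Of the genes that restore chromatin behind the fork, 3 of 4 fell, beside 7.38% of all genes tested. Chaf1a, the large subunit of the histone chaperone CAF-1, was at 24.8, 21.1 and 21.2 FPKM in siCtrl and at 15.6, 16.8 and 17.3 in siNQO1 (edgeR log2 fold change -0.42 ± 0.074 SE, adjusted p 0.00895). Its partner Chaf1b had a siCtrl mean of 15.8 ± 1.01 FPKM (SD, n = 3) and a siNQO1 mean of 15.97 ± 0.861 (SD, n = 3), with a 95% interval of the log2 fold change from -0.15 to 0.20. The log2 ratio of Chaf1a to Chaf1b was 0.57, 0.52 and 0.40 in siCtrl and -0.04, 0.00 and 0.20 in siNQO1. Uhrf1, which reads hemimethylated DNA, was at 25.1, 24.8 and 23.7 FPKM in siCtrl and at 19.8, 19.04 and 18.7 in siNQO1 (edgeR log2 fold change -0.34 ± 0.050 SE, adjusted p 0.00467). The maintenance methyltransferase Dnmt1 was at 30.8, 27.9 and 30.3 FPKM in siCtrl and at 25.1, 24.8 and 26.3 in siNQO1 (edgeR log2 fold change -0.21 ± 0.056 SE, adjusted p 0.0420). Dnmt1 did not pass without any 1 library other than siCtrl replicate 2 (highest edgeR adjusted p 0.136), nor with upper-quartile factors (edgeR adjusted p 0.0525).

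Of the fork protection genes, Timeless fell, with a siCtrl mean of 7.96 ± 0.859 FPKM (SD, n = 3) and a siNQO1 mean of 6.07 ± 0.0462 (SD, n = 3) (edgeR log2 fold change -0.38 ± 0.082 SE, adjusted p 0.0209). It did not pass without siCtrl replicate 3 or any 1 of the siNQO1 libraries (highest edgeR adjusted p 0.0798). Its binding partner Tipin was at 15.6, 18.8 and 14.6 FPKM in siCtrl and at 15.8, 16.2 and 15.3 in siNQO1, and Clspn, which carries the checkpoint signal, was near 1 FPKM in both groups. Their log2 fold changes were -0.04 and 0.06, and their 95% intervals reached from -0.28 to 0.20 and from -0.27 to 0.39.

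The median gene of each role was compared library by library on the log2 CPM scale, relative to the siCtrl mean of each gene. The median of all 52 genes was -0.21, -0.25 and -0.20 in siNQO1 replicates 1, 2 and 3 and 0.05, -0.05 and 0.00 in siCtrl replicates 1, 2 and 3. For MCM2-7 it was -0.34, -0.36 and -0.34 in siNQO1 and 0.10, -0.12 and 0.02 in siCtrl. The groups were apart in 8 of the 9 roles, and overlapped in fork protection. They were also apart for the median of all genes tested, at 0.014 to 0.017 in siNQO1 and -0.023 to 0.008 in siCtrl. The medians of the other replication genes and of the mitosis genes, described below, were apart as well. Most of the 52 genes had their lowest library in siNQO1, 22 of them in replicate 2, 17 in replicate 1 and 4 in replicate 3. The same count was not made over all genes tested, so it does not set the 52 genes apart.

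**Figure D4:**
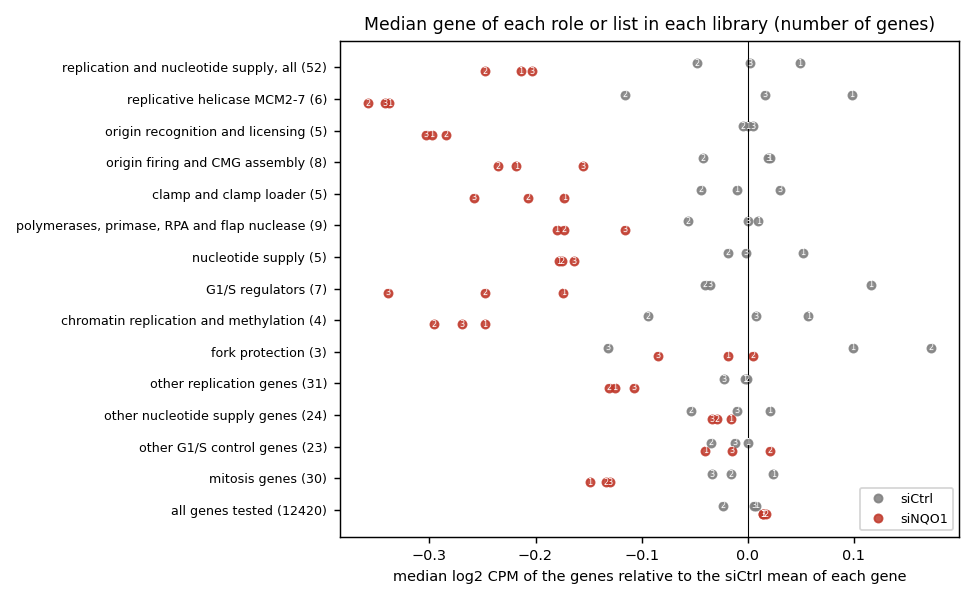
Median log2 CPM of the genes of each role or list, relative to the siCtrl mean of each gene (horizontal axis), in the 3 siCtrl (gray) and 3 siNQO1 (red) libraries, with the replicate number in each point. The siNQO1 points of all 52 genes lie at -0.25 to -0.20, while those of all 12420 genes tested lie at 0.01 to 0.02.

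Other genes of the same pathway were taken from fixed lists, which were chosen with earlier results of these data known. Of 31 other replication genes tested, 3 fell, which is 9.68%, none rose and 28 did not pass. Beside them, 7.38% of all genes tested fell and 5.27% rose. The median log2 fold change of the 31 genes was -0.13. At an unadjusted p under 0.05, 12 were lower and 3 higher in edgeR, beside 15.3% and 13.7% of all genes. The 3 that fell were Ticrr, which helps to load Cdc45, the polymerase epsilon subunit Pole4 and Ssrp1, a subunit of the histone chaperone FACT. Ticrr was at 1.59, 1.44 and 1.51 FPKM in siCtrl and at 1.00, 1.01 and 1.10 in siNQO1. The log2 fold changes of Ticrr, Pole4 and Ssrp1 were -0.54, -0.36 and -0.22 (edgeR adjusted p 0.0113, 0.00801 and 0.0461). The number of genes in this list that fell was 12 without siCtrl replicate 2 and 1 without siNQO1 replicate 2, beside 16.1% and 2.78% of all genes. It was 2 without any other single library, beside 3.35% to 5.23% of all genes. That none rose rested on siCtrl replicate 2, since 7 rose when it was left out, beside 17.2% of all genes. Among the 7, named after their values were seen, Rfc1, Rif1 and Orc4 had log2 fold changes of 0.62, 1.36 and 0.79 (edgeR adjusted p 9.79e-06, 8.41e-05 and 0.000331). DESeq2 on all libraries called 2 higher, beside 7.17% of all genes. Ssrp1 lost its call without any 1 library other than siCtrl replicate 2 (highest edgeR adjusted p 0.112), and Ticrr without siNQO1 replicate 2 (edgeR adjusted p 0.0579).

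Of 24 other genes of nucleotide supply, 2 fell and 1 rose, beside 7.38% and 5.27% of all genes. The median log2 fold change of the 24 genes was -0.02. Without siCtrl replicate 2, 4 fell and 2 rose, beside 16.1% and 17.2% of all genes. The CTP synthase Ctps1 and Gart, an enzyme of purine synthesis, had log2 fold changes of -0.18 and -0.34 (edgeR adjusted p 0.0297 and 0.0119), and the deoxycytidylate deaminase Dctd rose by 0.32 on the log2 scale (edgeR adjusted p 0.0132). Dctd was at 11.7, 12.5 and 12.1 FPKM in siCtrl and at 15.0, 15.2 and 14.6 in siNQO1, so the groups were apart. Without at least 1 library these calls were lost, with highest adjusted p of 0.0877 for Ctps1 and 0.0540 for Gart without siCtrl replicate 3 and 0.0918 for Dctd without siNQO1 replicate 2, from edgeR.

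Of 23 other genes of G1/S control, 3 fell and 1 rose, beside 7.38% and 5.27% of all genes. The median log2 fold change of the 23 genes was 0.00. Without siCtrl replicate 2, 5 fell and 2 rose, beside 16.1% and 17.2% of all genes. Cdk4, the kinase that partners D cyclins, was at 297, 263 and 284 FPKM in siCtrl and at 209, 211 and 214 in siNQO1 (edgeR log2 fold change -0.40 ± 0.056 SE, adjusted p 0.00381). Its partner Ccnd1 rose from 430, 404 and 430 FPKM to 491, 483 and 492 (edgeR log2 fold change 0.23 ± 0.054 SE, adjusted p 0.0307). Rb1, which restrains the E2F activators, and E2f5 had log2 fold changes of -0.58 and -0.47 (edgeR adjusted p 0.0355 and 0.0169). Without at least 1 library Ccnd1, Rb1 and E2f5 did not pass, with highest edgeR adjusted p of 0.102 and 0.131 when siNQO1 replicate 1 was left out and 0.0858 for E2f5 when replicate 3 was.

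Mitosis genes, which peak later in the cycle, were set beside the replication genes. Of 30 tested, 12 fell, none rose and 18 did not pass, beside 7.38% and 5.27% of all genes that fell and rose. The median log2 fold change of the 30 genes was -0.13, with 10 values above 0. At an unadjusted p under 0.05, 14 were lower and 0 higher in edgeR, beside 15.3% and 13.7% of all genes. The kinesin Kif20a, Racgap1 of the central spindle and the kinase Plk1 had log2 fold changes of -0.43, -0.39 and -0.38 (edgeR adjusted p 0.00262, 0.00296 and 0.00763). The share that fell was 40.0% for the mitosis genes and 40.4% for the replication genes. The number of mitosis genes that fell was 16 when siCtrl replicate 2 was left out, beside 16.1% of all genes. It was 9 and 7 without siCtrl replicates 1 and 3, beside 5.23% and 3.55%. It was 7, 4 and 6 when siNQO1 replicates 1, 2 and 3 were left out in turn, beside 3.91%, 2.78% and 3.35%. That none rose also rested on siCtrl replicate 2, since 10 mitosis genes rose when it was left out, beside 17.2% of all genes. With any other single library left out 0 rose, beside 1.32% to 2.73% of all genes. Among the 10, named after their values were seen, Mki67, Cenpf and Cenpe had log2 fold changes of 0.78, 1.00 and 1.00 in that fit (edgeR adjusted p 9.75e-06, 9.79e-06 and 0.000216).

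**Figure D5:**
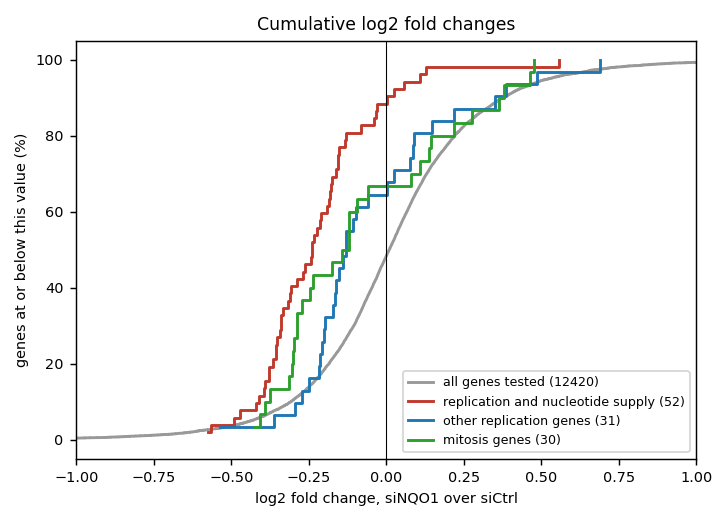
Cumulative share of genes (vertical axis, percent) at or below each log2 fold change (siNQO1 over siCtrl, horizontal axis) for the 52 replication and nucleotide supply genes (red), 31 other replication genes (blue), 30 mitosis genes (green) and all 12420 genes tested (gray). Around the medians, which are -0.24 and 0.01, the red curve lies left of the gray one, and the blue and green medians are both -0.13.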

How the data were processed

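Polyadenylated RNA of 3 siNQO1 and 3 siCtrl samples was sequenced from stranded libraries. Reads were trimmed by the authors with FASTX-Toolkit and aligned to RGSC6 with TopHat2, keeping those with 1 mapping position. The processing notes of the submitters list bcl2fastq, TopHat2 and edgeR as tools. The count of reads per gene was deposited whole and without normalization, and FPKM is as the authors computed it. No source used here gives the counting tool or its strand setting, so overlapping genes, and Dbf4 with its pseudogene, may share reads. Samples of a group are biological replicates per the paper, which gives no further detail of their cultures, so each p-value refers to the spread among them.

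Counts were tested in R 4.3.3 with edgeR 4.0.16 (filterByExpr, TMM, glmQLFit and glmQLFTest, no block), with Benjamini-Hochberg adjustment over 12420 genes and an adjusted p under 0.05. Standard errors are the log2 fold change over the square root of F. Log2 CPM used a prior count of 2. Alternatives were other scalings and filters, DESeq2 1.42.0, limma 3.58.1 on voom values and on log2(FPKM + 1) and log2(FPKM + 0.1), a replicate block and each library left out. Voom with sample weights was added after the values were seen. The fit was tested on simulated data. The genes and lists were chosen with earlier results of these data known. Values per library are given for the 12 genes with the smallest p, any gene that rose, the most abundant gene of each role, E2f1, Rrm2, Pcna and MCM2-7. Orc2, Dbf4, Pola1, Tyms and Ccne2 were given single-library values, and other genes group means, after their values were seen. Of other lists, up to 3 genes past the test in each direction are named. Markers of fibroblasts (summed FPKM 50.4 to 54.6, mostly Pdgfra, with Pdgfrb higher by 0.45 on the log2 scale, edgeR adjusted p 0.0160), immune cells (2.48 to 4.46) and endothelium (0.98 to 1.26) were also summed. The result of 1 marker is not reported here.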

Additional observations from a re-analysis of the deposited data

How the results depend on the processing

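The number of replication and nucleotide supply genes that fell was 19 to 26 under other scalings, filters and tests, and 33 with voom sample weights, where 2 rose. With each library left out it ran from 12 to 33, that of genes that rose from 0 to 2, that of other replication genes that fell from 1 to 12 and that of mitosis genes from 4 to 16. With sample weights 5 other replication genes and 9 mitosis genes rose, beside 16.1% of all genes. Other replication genes that fell numbered 5 with CPM over 1 in at least 3 libraries and 12 with sample weights, beside 10.5% and 15.5%. Of the 21 genes, 10 kept their call under all 17 alternatives. The median of all genes tested moved between 0.004 and 0.022 with the scaling. Deviations of same-numbered libraries correlated at -0.04, 0.16 and 0.06, and with the replicate number as a block 19 of the 52 genes fell and 740 genes in all fell.

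Signs turned in genes near 0 and in Ccne2, which was at -0.352 with all libraries. Tyms had log2 fold changes of -0.001 (RLE and DESeq2), -0.002 (library size alone), -0.009 (CPM over 1), -0.010 (both FPKM fits), -0.020, -0.009, -0.005 and -0.030 (without siCtrl replicates 2 and 3 and siNQO1 replicates 1 and 2). Without siCtrl replicate 2 and with sample weights, Ccne2 was at 0.259 and 0.087, Dbf4 at 0.234 and 0.121, Tipin at 0.067 and 0.049, and Chaf1b at -0.030 and -0.006. Chaf1b was at -0.023 and Dbf4 at 0.023 without siNQO1 replicate 2, Dbf4 at 0.040 without siNQO1 replicate 3, and Clspn at -0.07 and -0.014 without siCtrl replicate 3 and siNQO1 replicate 1. Over the fits that left out 1 library each, log2 fold changes ran from -0.633 to 0.259 for Ccne2, -0.207 to 0.234 for Dbf4, -0.106 to 0.067 for Tipin, -0.030 to 0.063 for Chaf1b, -0.07 to 0.15 for Clspn and -0.030 to 0.021 for Tyms. The cause of the turns without siCtrl replicate 2 was not tested. The largest standard errors were those of Ccne2, Pola1 and Dbf4 (0.344, 0.246 and 0.204), in which siCtrl replicate 2 lay above the other siCtrl libraries. The part of depth in them was not tested.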

Other observations

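The pseudogene row listed as Dbf4, on chromosome 4 like the gene, held 41, 65 and 45 reads in the siCtrl libraries and 29, 40 and 68 in the siNQO1 libraries. The protein-coding row held 317, 627 and 387 and then 518, 385 and 455. The pseudogene row had a log2 fold change of -0.24 (edgeR adjusted p 0.611), and both rows may share reads.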
